A study of Mus musculus with 10 samples.

Results

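The keratins of simple and basal epithelia were followed in mouse sarcomas of the dFLEx CDS and KP models. The 10 genes were Krt7, Krt8, Krt18, Krt19 and Krt20, the simple epithelial keratins, Krt5, Krt14, Krt15 and Krt17, the basal and stratified keratins, and Krt80. They were chosen by name and found through their gene identifiers among the 56750 features of the deposited count table, and all 10 were present. The annotation lists 54 protein-coding keratin genes, so 44 other keratins served as a comparison within the family.

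Keratins are intermediate filament proteins that assemble as pairs of a type I and a type II chain. Krt8 (type II) and Krt18 (type I) form the filaments of simple epithelia, with Krt7, Krt19 and Krt20 added in particular ducts and mucosae, whereas Krt5 with Krt14 or Krt15 builds the filaments of the basal layer of stratified epithelia and Krt17 is known from hair follicles and injured skin. Sarcomas are mesenchymal tumors whose usual intermediate filament protein is vimentin, and a pan-cytokeratin stain is a common way to look for keratin in them. The study stained its dFLEx tumors for pan-cytokeratin and reported the stain as negative. Its caption names KP sarcomas as the negative control of that staining panel, and its text states no pan-cytokeratin result for them. The stain reads protein in sections, and the RNA counts ask which keratin genes were transcribed.

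RNA was sequenced from 5 tumors. The 3 dFLEx tumors (170019, 170024 and 170025, genotype dFLEx CDS +/-) came from mice with 1 copy of an HA-tagged CIC::DUX4 construct at Rosa26 whose exons are turned into the reading direction by Cre and FLPE. Per the study's methods, plasmids with the ubiquitous CAG promoter (pCAG-Cre and pCAG-FLPE) were electroporated into the gastrocnemius of young dFLEx mice, so any electroporated cell type could recombine. The 2 KP tumors (3800 and 3802) were sarcomas in mice of the KP model, whose genotype includes p53fl/fl (floxed Trp53 alleles), and how these tumors were induced and the ages of the mice are not given in the sources used here. No drug treatment is given in the labels of either group. Each RNA was split into duplicates for library preparation, and duplicates of a tumor were pooled. KP tumor 3802 entered with 1 library, and its second library was not analysed here.

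Tumor totals ran from 20503474 to 82138251 counts. Counts on the CIC::DUX4 contig were between 89.2 and 412 CPM (counts relative to the library total) in the dFLEx libraries and between 0 and 0.293 CPM in the KP libraries, so the transgene followed the labels. Tumor 3802 stood apart: it had the fewest counts, yet 64.3% of 1547 olfactory and vomeronasal receptor genes, which serve as a gauge of diffuse background, had a count there, against 10.5% to 48.7% in the other tumors. Its lymphocyte markers (Cd3e, Cd3d, Cd79a and Ms4a1) summed to 44.9 CPM, against 2.65 to 4.98 CPM elsewhere. For the 10 keratins and for each list median given, a direction that turned on 3802 is shown with and without it. Vim (vimentin) was at 715, 1181 and 1867 CPM in the dFLEx tumors and 3668 and 768 CPM in the KP tumors, with overlapping groups. Vim alone does not give the cell type of the tissue.

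Krt8 and Krt18 are neighbors on chromosome 15 (GRCm39). In the deposited table Krt8 (ENSMUSG00000049382) spans 101905133 to 101912917 on the minus strand, and Krt18 (ENSMUSG00000023043) spans 101936615 to 101940462 on the plus strand, so the genes point away from each other with 23698 bases between them. Krt7 and Krt80 lie on the same chromosome, as does Krt5, and Krt14, Krt15, Krt17, Krt19 and Krt20 lie on chromosome 11. RefSeq promoters (GRCm38.p6, 250 bases before to 50 bases from the start on) were matched for 6 of the 10 genes. Those of Krt8 and Krt18, the genes that differed between the models, and of Krt7, a simple keratin of the same chromosome whose difference did not pass the test, are shown. Each had 1 exact match in GRCm39, at chr15:101912728-101913027 (minus strand) for Krt8, chr15:101936401-101936700 (plus strand) for Krt18 and chr15:101310034-101310333 (plus strand) for Krt7. The RefSeq starts lay at 101912777 for Krt8, 101936651 for Krt18 and 101310284 for Krt7. In the count table these genes start at 101912917, 101936615 and 101308924, so the windows are not placed on those starts. Capitals mark motifs that were searched.
Krt8: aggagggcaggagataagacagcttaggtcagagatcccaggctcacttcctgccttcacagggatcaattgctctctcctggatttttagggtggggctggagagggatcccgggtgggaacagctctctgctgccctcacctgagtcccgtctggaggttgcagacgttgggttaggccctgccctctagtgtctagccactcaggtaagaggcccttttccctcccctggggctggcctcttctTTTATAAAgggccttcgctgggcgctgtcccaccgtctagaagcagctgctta
Krt18: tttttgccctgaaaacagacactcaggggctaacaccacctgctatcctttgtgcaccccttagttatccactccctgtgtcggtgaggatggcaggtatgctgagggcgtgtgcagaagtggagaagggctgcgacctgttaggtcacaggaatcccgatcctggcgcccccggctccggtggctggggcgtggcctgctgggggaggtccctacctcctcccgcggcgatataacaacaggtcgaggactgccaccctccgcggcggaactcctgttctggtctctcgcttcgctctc
Krt7: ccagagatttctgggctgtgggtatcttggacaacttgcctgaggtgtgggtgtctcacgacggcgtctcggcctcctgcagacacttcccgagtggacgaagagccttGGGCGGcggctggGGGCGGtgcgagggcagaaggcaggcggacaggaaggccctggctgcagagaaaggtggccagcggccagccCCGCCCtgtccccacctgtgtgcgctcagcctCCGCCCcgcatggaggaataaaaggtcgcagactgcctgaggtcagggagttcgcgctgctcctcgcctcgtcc

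The motifs searched on both strands were the TATA box TATAAA, the GC box GGGCGG, the AP-1 motif TGANTCA, the Ets motif CCGGAA and the CIC octamers TGAATGAA and TCAATGAA. The capital run in Krt8 holds TATAAA on each strand, the matches overlapping, next to the RefSeq start. Of the 32851 RefSeq promoters of this length, 13.6% hold that motif. Krt7 holds GGGCGG at 4 places, 2 on each strand, and 35.7% of all promoters hold it. Krt18 held none of the 6 motifs. Neither CIC octamer, found in 1.3% and 0.749% of all promoters, was in any of the 6 keratin promoters, which says only that these letters are not in these windows.

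Krt18, the type I chain of simple epithelia, was the keratin with the widest gap between the models. Its level, as CPM scaled by the trimmed mean of M values (TMM), was 1.57, 1.53 and 0.605 CPM in dFLEx tumors 170019, 170024 and 170025 and 212 and 151 CPM in KP tumors 3800 and 3802. The lower KP tumor stood 96.1-fold above the highest dFLEx tumor, so the groups did not overlap. The fitted log2 fold change (dFLEx against KP, here and throughout) was -7.20 (SE 0.75, n = 3 and 2 tumors, edgeR adjusted p = 0.0335).

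Krt8, the type II partner, followed the same direction. It was at 1.34, 0.902 and 0.416 CPM in the dFLEx tumors, in the same order, and 110 and 39.0 CPM in the KP tumors. The lower KP tumor, 3802, stood 29.1-fold above the highest dFLEx tumor. The log2 fold change was -6.40 (SE 0.85, edgeR adjusted p = 0.0480), close to the threshold of 0.05. In these bulk samples fewer keratin-expressing cells and less keratin RNA per cell cannot be told apart.

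**Figure D1:**
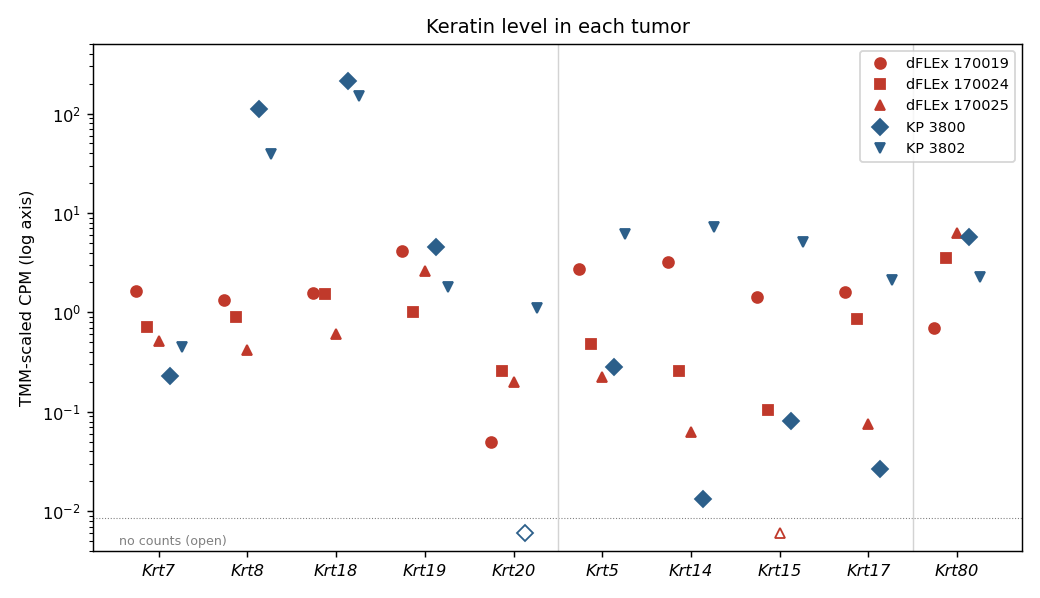
TMM-scaled CPM of each of the 10 keratins (horizontal axis) in each of the 5 tumors on a log axis; every point is 1 tumor, red for dFLEx and blue for KP, and open points under the dotted line are tumors with no counts. Krt8 and Krt18 are high in both KP tumors, at 39.0 to 212 CPM, and the other keratins stay under 10 CPM in every tumor.

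Of the 10 keratins, 2 were called lower in dFLEx tumors and 0 higher, where 0.0808% of the 24743 tested genes were called lower, 0.101% higher and 0.182% in either direction. The median log2 fold change of the 10 was -1.54, against -0.18 over all tested genes. Without 3802 the same 2 were called, but the median turned to 2.05 (6 above 0 and 4 below), against 0.34 over all genes tested then. Beside the 2 called genes, Krt7 was the only one of the 10 whose tumors did not overlap between groups, and 25.4% of all tested genes did not overlap in either direction (13.7% higher and 11.7% lower in dFLEx). Krt8 and Krt18 were also the only 2 of the 10 called by DESeq2 on tumor sums, which called 6.53% of its tested genes, by limma-voom with tumors as random effects (2.78%), and by edgeR and DESeq2 with libraries taken as independent samples (17.1% and 20.1%). Leaving out 1 tumor decided these calls. Krt18 was not called without 170019, 170024 or 170025 (adjusted p = 0.179, 0.150 and 0.0506), and Krt8 was not called without any of those or without 3800 (adjusted p = 0.183, 0.190, 0.0786 and 0.0813), all by edgeR. Without 3802 both were called (adjusted p = 0.0101 for Krt18 and 0.0131 for Krt8). The log2 fold changes stayed between -7.44 and -6.78 for Krt18 and between -6.94 and -5.31 for Krt8.

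Duplicate libraries bear on the low dFLEx values. In KP tumor 3800 the duplicates gave 223 and 226 CPM of the library total for Krt18 and 113 and 119 CPM for Krt8. In the dFLEx tumors the higher duplicate exceeded the lower by 1.08- to 2.34-fold for Krt18 and by 1.78- to 2.75-fold for Krt8, on 10 to 58 counts a library. Duplicates share 1 RNA, so this spread is technical.

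The low dFLEx counts on both genes were nonetheless above the diffuse background of their libraries. Per kilobase, Krt18 had 45.6, 70.5 and 151 times the counts of the receptor genes in 170019, 170024 and 170025. The corresponding values for Krt8 were 28.7, 30.6 and 76.3 times. Per kilobase of exon, Krt18 exceeded 40.6%, 36.0% and 23.9% of the 16857 tested protein-coding genes in the dFLEx tumors, and 98.5% and 97.1% in the KP tumors. Krt8 exceeded 19.3% to 34.0% of those genes in dFLEx tumors, and 95.1% and 88.7% in 3800 and 3802. Both genes were thus among the more abundant transcripts of the KP sarcomas and in the lower part of the range in the dFLEx sarcomas.

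Some reads of both genes can also align to copies. Krt8-ps, a processed pseudogene, matches 48.1% of the Krt8 transcript at 98.6% identity and had 36 counts in 3800 and at most 2 in each other tumor. Reads with several alignments were not counted, so Krt8 may be undercounted in every tumor. The nearest Krt18 copy, Gm5200, is 90.5% identical and had at most 2 counts in a tumor. Gm36026, a long noncoding RNA gene on the other strand that overlaps the start of Krt8, stayed at or below 0.284 CPM.

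The ratio of partners was set beside their levels, since the chains assemble in equal numbers. Per kilobase, Krt8 stood to Krt18 as 0.630, 0.435 and 0.507 to 1 in the dFLEx tumors and as 0.381 and 0.190 to 1 in the KP tumors. Krt18 had more counts per kilobase in all 5 tumors, though Krt8 may be undercounted because of its copy, so transcript abundance cannot be ranked. The ratio was higher in every dFLEx tumor than in either KP tumor. That order did not hold by library: the duplicates of 170024 gave 0.975 and 0.157 to 1, the second below both KP tumors, and those of 170025 gave 0.605 and 0.376 to 1. The mean log2 ratio was -0.95 ± 0.27 (SD, n = 3) against -1.89 ± 0.71 (SD, n = 2). The difference of 0.94 had an exact two-sided permutation p = 0.2, the smallest that 3 tumors against 2 allow, and 0.533 after Benjamini-Hochberg adjustment over 4 pairs. The other pairs overlapped between groups, with exact permutation p = 0.4 for Krt7 with Krt19 (difference 1.72), 0.8 for Krt5 with Krt14 (difference -1.002) and 0.4 for Krt5 with Krt15 (difference 1.76), and adjusted p = 0.533, 0.8 and 0.533.

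Krt8 and Krt18 made up most keratin counts of the KP tumors and few of those of the dFLEx tumors. Their share of the counts on all 54 keratin genes was 4.35% (Wilson 95% interval 3.64 to 5.19) in 170019, 8.33% (7.10 to 9.75) in 170024 and 4.99% (4.04 to 6.16) in 170025. In KP tumors it was 94.3% (94.0 to 94.5) in 3800 and 67.1% (66.0 to 68.2) in 3802. The groups did not overlap. The intervals cover counting error only and understate it, since each mate was counted as a read. Per kilobase, the keratin of highest level was Krt10, a suprabasal epidermal keratin, in each dFLEx tumor and Krt18 in both KP tumors. All keratins other than Krt8 and Krt18 summed to 64.0, 26.7 and 19.4 CPM in the dFLEx tumors and 19.6 and 93.0 CPM in the KP tumors, with 3802 the highest and 3800 near the lowest.

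**Figure D2:**
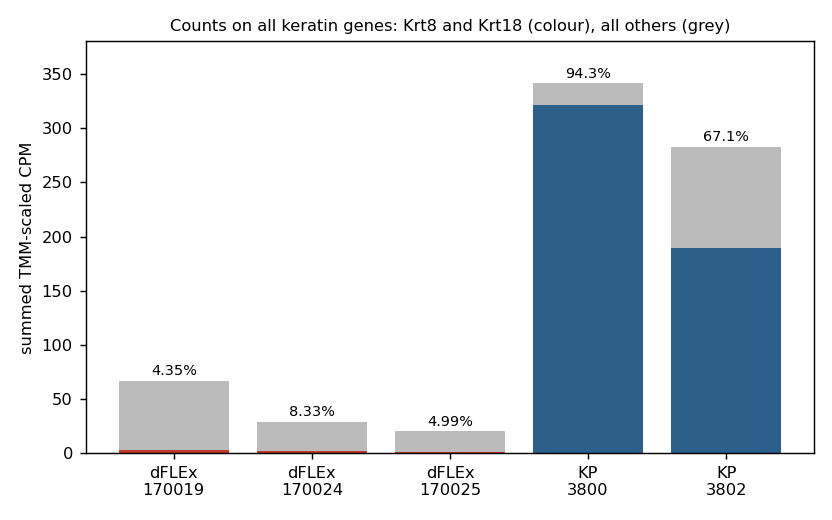
Summed TMM-scaled CPM of all 54 protein-coding keratin genes per tumor; each bar is 1 tumor, the colored part (red dFLEx, blue KP) is Krt8 with Krt18 and the grey part all other keratins, and the percentage above is the share of keratin counts on Krt8 and Krt18. The share is at most 8.33% in dFLEx tumors and at least 67.1% in KP tumors.

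No other simple keratin was called. Krt19, a small type I keratin of ducts, was at 4.18, 1.01 and 2.63 CPM in the dFLEx tumors and 4.53 and 1.79 CPM in the KP tumors. The groups overlapped, and the log2 fold change was -0.28 (2 SE either side, -1.97 to 1.40; edgeR adjusted p = 0.963). That interval does not reach the fold changes of Krt8 or Krt18. Krt19 was the member of highest level per kilobase in 170019 and 170025, at 2.25 and 1.42 CPM per kilobase.

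Krt7, a type II keratin of ducts and transitional epithelium, was at 1.64, 0.711 and 0.516 CPM in the dFLEx tumors and 0.228 and 0.447 CPM in the KP tumors. All dFLEx tumors lay above both KP tumors, the opposite order to Krt8 and Krt18, but the lowest dFLEx value was only 1.16-fold above the highest KP value. The log2 fold change of 1.51 (SE 1.15) did not pass the test (edgeR adjusted p = 0.813). In 3802 Krt7 had 11 counts, 0.595 times the diffuse background of that library per kilobase, so its level there cannot be read as expression of the gene.

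Krt20, a type I keratin of gut and bladder surface epithelium, was near the detection limit. It was at 0.0498, 0.260 and 0.202 CPM in the dFLEx tumors, had 0 counts in 3800, which allows up to 0.0403 CPM, and was at 1.10 CPM in 3802. The KP tumors lay on either side of all dFLEx tumors. The log2 fold change of -1.64 had an SE of 1.99 (edgeR adjusted p = 0.898), and it was 6.46 without 3802 (adjusted p = 0.389).

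The 4 basal and stratified keratins had a wide range within each model, and the models overlapped for all 4. Krt5, the basal type II chain, was at 2.76, 0.486 and 0.227 CPM in the dFLEx tumors and 0.282 and 6.14 CPM in the KP tumors. Krt14, its type I partner, was at 3.23, 0.260 and 0.0630 CPM and at 0.0134 and 7.23 CPM. In both genes 3802 was highest and 170019 second, and the remaining tumors were at or below 0.486 CPM.

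Krt15, a type I keratin of basal and hair follicle stem cells, repeated that order at 1.44 and 0.104 CPM in 170019 and 170024, 0 counts in 170025 (allowing up to 0.0378 CPM), 0.0806 CPM in 3800 and 5.12 CPM in 3802. Krt17, the keratin of hair follicles and injured skin, was at 1.59, 0.867 and 0.0756 CPM in the dFLEx tumors and 0.0269 and 2.11 CPM in the KP tumors. The 4 genes summed to 9.03, 1.72 and 0.365 CPM in the dFLEx tumors and 0.403 and 20.6 CPM in the KP tumors. None was called by edgeR (0 of 4 at an unadjusted p under 0.05, and 0 of 4 by DESeq2 on tumor sums), with log2 fold changes of -1.47 for Krt5, -1.61 for Krt14, -2.34 for Krt15 and -0.33 for Krt17 and adjusted p = 0.845 to 0.980. Without 3802 all 4 log2 fold changes changed sign, to 2.04, 6.27, 2.64 and 4.88 (adjusted p = 0.307 to 0.615, 2 of 4 at an unadjusted p under 0.05), so their direction rested on that tumor.

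Some markers of keratinocytes had the order of the basal keratins across tumors. The 9 keratinocyte markers with a match summed to 33.6 to 81.8 CPM in the dFLEx tumors and 33.1 and 130 CPM in the KP tumors. Their median log2 fold change was -0.80, and it was 1.07 without 3802. Lgals7, an epidermal galectin, was at 26.1, 5.32 and 1.61 CPM in the dFLEx tumors and 5.32 and 84.6 CPM in the KP tumors, again highest in 3802 and then in 170019. Krtdap, a marker of differentiating keratinocytes named after its value was seen, was at 2.79, 0.503 and 0.189 CPM and at 0 and 4.06 CPM. Sfn was at 3.64 to 11.6 CPM in all tumors, and Loricrin, the main cornified envelope protein, was at 22.0 to 38.6 CPM in the dFLEx group and 15.4 and 17.4 CPM in the KP group, an order that did not follow the basal keratins. Col17a1, a hemidesmosome collagen of basal keratinocytes, was the only marker of the list at an unadjusted p under 0.05. It had another order, at 0.821, 0.468 and 0.328 CPM in the dFLEx tumors and 3.83 and 4.31 CPM in the KP tumors (log2 fold change -2.92, adjusted p = 0.205), and was also named after its value was seen. In 3800, 2 of the 9 markers (Dsg3 and Krtdap) had no counts. In 3802 the basal keratins stood 12.8 to 38.6 times above the diffuse background of the library per kilobase, and in 170019 34.1 to 76.9 times. The part of skin cells, or of the diffuse background, in the basal keratin counts was not tested.

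Krt80, a type II keratin expressed in many epithelia, was at 0.697, 3.54 and 6.27 CPM in the dFLEx tumors and 5.71 and 2.28 CPM in the KP tumors. It was lowest where the basal keratins of the dFLEx group were highest, in 170019, and the groups overlapped. The log2 fold change was -0.19 (2 SE either side, -2.09 to 1.71; edgeR adjusted p = 0.980).

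Among the 44 other keratins, 18 were tested and 0 were called by edgeR (0 at an unadjusted p under 0.05, and 0 by DESeq2 on tumor sums). Their median log2 fold change was -1.30, and it became 5.61 over the 20 tested without 3802, against 0.34 over all genes tested then. In 3800, the KP tumor left, 27 of the 44 had 0 counts, so 5.61 rests in part on genes with no KP counts. Of the 12 that reached 1 CPM in a tumor, 11 were highest in 3802. Most of these 11 reached 1 CPM only in 3802, so that filter itself fixed their place. Without the filter, 32 of the 44 were highest in 3802, and the share over all features was not computed. The diffuse background was also highest there, at 0.107 CPM per kilobase against 0.00278 to 0.0239 in the other tumors. Per kilobase, the 11 stood in 3802 at 2.94 (Krt1) to 65.3 (Krt77) times that background. Krt1 stood at 9.42 times the background of 170019, and Krt222 at 4.17 times in 3802 and 147 times in 170025. The part of the diffuse background in these counts was not tested. The exception, Krt10, was at 37.7, 13.3 and 6.41 CPM in the dFLEx tumors and 6.64 and 17.9 CPM in the KP tumors, with overlapping groups (log2 fold change 0.65, adjusted p = 0.909). Krt77, an epidermal type II keratin, was at 4.10, 0.0520 and 0.0252 CPM in the dFLEx tumors and 0 and 20.4 CPM in the KP tumors, the order of the basal keratins. Krt2, Krt1, Krt12, Krt23, Krt24, Krt25, Krt27, Krt28, Krt71 and Krt222, most of them keratins of epidermis, cornea or hair follicle, peaked between 1.10 and 3.86 CPM. Of all tested keratins, Krt8 and Krt18 were the only ones called by edgeR.

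**Figure D3:**
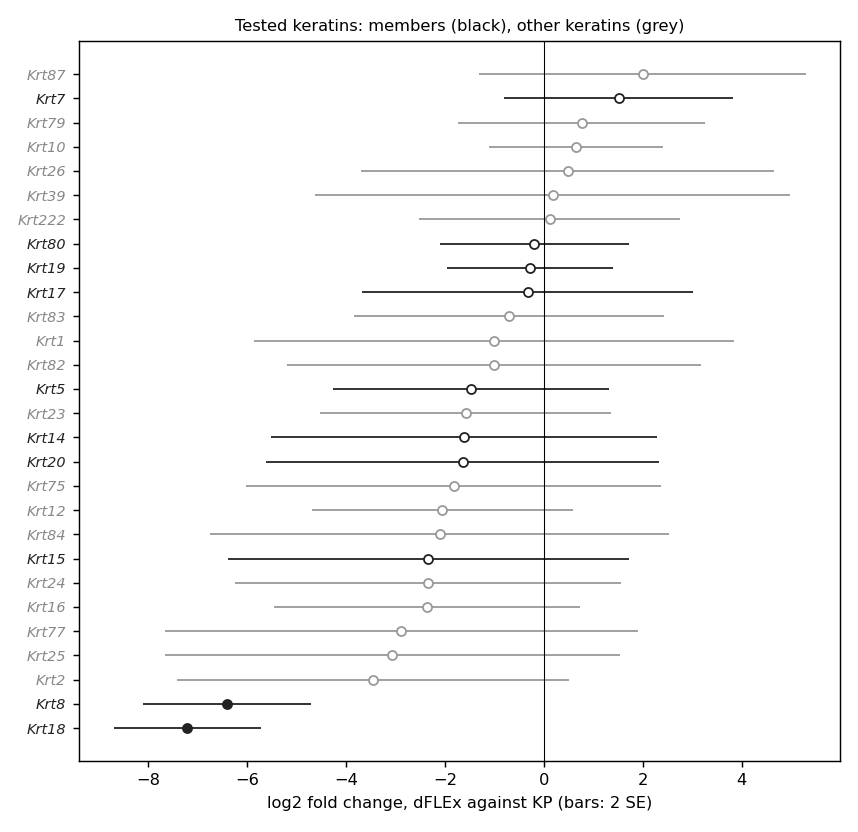
Log2 fold change of each tested keratin, dFLEx against KP, with bars of 2 SE; black marks the 10 keratins described, grey the 18 other tested keratins, and filled points have an edgeR adjusted p under 0.05. The intervals of Krt18 (-8.69 to -5.71) and Krt8 (-8.09 to -4.70) lie below 0, and those of all other keratins include 0.

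No other gene near Krt8 and Krt18 was called. Within 250 kb of either gene lie 24 other features, of which 16 were tested and 0 were called by edgeR. At an unadjusted p under 0.05, 1 was lower (10.6% of all tested genes in either direction). DESeq2 on tumor sums called 1 lower (6.53% of its tested genes in either direction). The median log2 fold change of the 16 was -0.30. The neighbors of highest level per kilobase were Igfbp6, Eif4b and Mfsd5. Igfbp6, which encodes an IGF-binding protein, was at 110, 91.3 and 33.9 CPM in the dFLEx tumors and 54.9 and 184 CPM in the KP tumors (log2 fold change -0.61, adjusted p = 0.899). Eif4b, a translation initiation factor, had a log2 fold change of 0.27 (adjusted p = 0.964) and Mfsd5 one of -0.20 (adjusted p = 0.953). The gene with the unadjusted p under 0.05 was Itgb7, an integrin chain of leukocytes, at 3.96, 7.39 and 4.12 CPM against 23.4 and 20.6 CPM (log2 fold change -2.09, adjusted p = 0.232), named here after its value was seen.

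**Figure D4:**
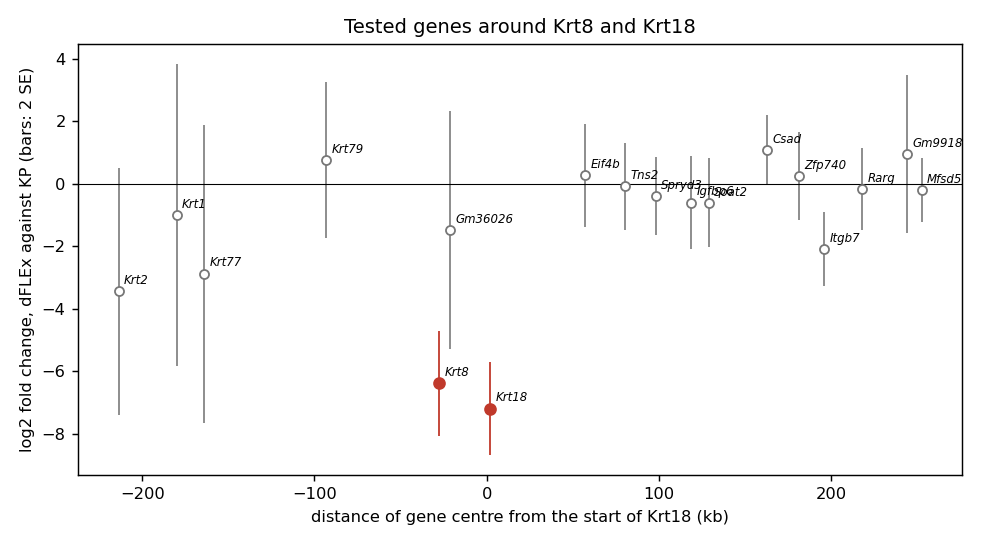
Log2 fold change (dFLEx against KP, bars of 2 SE) of the 16 tested genes within 250 kb of Krt8 and Krt18 (grey) and of Krt8 and Krt18 (red) by distance of the gene's center from the start of Krt18 in kb. Krt8 and Krt18 are at -6.40 and -7.20, and the other genes lie between -3.44 and 1.07.

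Desmosomes anchor keratin filaments at the cell membrane, and cytolinkers tie them to other structures. All 15 genes of this list were tested and 0 were called by edgeR, while 5 were lower at an unadjusted p under 0.05 and 5 were called lower by DESeq2 on tumor sums. Over all tested genes 10.6% had an unadjusted p under 0.05, 1397 genes higher and 1220 lower in dFLEx. DESeq2 on tumor sums called 6.53% of its tested genes in either direction. The median log2 fold change was -2.03, and 12 of the 15 were below 0. The genes of highest level per kilobase were Plec (plectin), Jup (plakoglobin) and Dst (dystonin), which also act outside epithelia. Plec was at 44.4, 145 and 248 CPM in the dFLEx tumors and 927 and 92.1 CPM in the KP tumors, and Jup at 36.9, 98.1 and 85.1 CPM against 63.5 and 34.1 CPM, both with overlapping groups. Dst was at 29.6, 51.3 and 110 CPM against 462 and 55.5 CPM.

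At an unadjusted p under 0.05 were 5 desmosome and cytolinker genes, named after their values were seen. They were the plakophilins Pkp1, Pkp2 and Pkp3, the desmocollin Dsc2 and the cytolinker Ppl. All 5 had every dFLEx tumor below both KP tumors, as did 11.7% of all tested genes. The 5 were picked by their p-values, so that order is not separate evidence. Pkp3 was at 0.647, 1.08 and 0.705 CPM in the dFLEx tumors and 6.99 and 6.14 CPM in the KP tumors (log2 fold change -3.02, adjusted p = 0.137). Pkp1 rested on 1 KP tumor, at 1.04 to 1.10 CPM in the dFLEx tumors against 25.3 CPM in 3800 and 1.67 CPM in 3802. Dsp (desmoplakin), the main plaque protein to which keratins attach and also named after its value was seen, was at 0.126 to 0.522 CPM in the dFLEx tumors and 0.470 and 2.97 CPM in the KP tumors, with overlapping groups. Without 3802 the median log2 fold change of the 15 was -1.14 (5 above 0 and 10 below), against 0.34 over all genes tested then.

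Genes of epithelial identity went in both directions. Of the 20, 18 were tested and 1 was called, higher in dFLEx tumors. At an unadjusted p under 0.05, 5 were higher and 1 was lower (10.6% of all tested genes in either direction). DESeq2 on tumor sums called 4 higher and 1 lower (6.53% of its tested genes in either direction). The median log2 fold change was -1.38. Without 3802 it turned to 1.19 (14 above 0 and 5 below), against 0.34 over all genes tested then. The called gene was Elf3, an epithelial Ets-family transcription factor, at 218, 207 and 161 CPM in the dFLEx tumors and 0.215 and 0.122 CPM in the KP tumors (log2 fold change 10.10, SE 0.87, edgeR adjusted p = 0.0245). The call was lost without 170019 or 170024 (adjusted p = 0.113 and 0.118), and the log2 fold change stayed between 9.83 and 10.77 with any 1 tumor left out.

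Of the other genes of this list at high level, Cdh3 (P-cadherin) was at 101, 162 and 265 CPM in the dFLEx tumors and 1.40 and 4.27 CPM in the KP tumors (log2 fold change 5.97, adjusted p = 0.0744). Spint2, an inhibitor of epithelial serine proteases, was at 283, 134 and 60.6 CPM against 3.35 and 23.6 CPM (log2 fold change 3.56, adjusted p = 0.264). Neither passed the test, though all dFLEx tumors lay above both KP tumors for each, as for 13.7% of all tested genes. Cdh1 (E-cadherin), named after its value was seen, had the opposite order at 0.896, 1.37 and 0.453 CPM in the dFLEx tumors and 12.4 and 4.75 CPM in the KP tumors (log2 fold change -3.24, adjusted p = 0.168). Epcam, another marker of simple epithelium named in the same way, was at 0.302 to 1.54 CPM in the dFLEx group and 3.75 and 1.91 CPM in the KP group (log2 fold change -1.35, adjusted p = 0.773).

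Markers of other cell types were set beside Krt8 and Krt18. The 9 markers of simple or glandular epithelium summed to 163 to 225 CPM in the dFLEx tumors, and to 18.6 and 14.9 CPM in the KP tumors. Elf3 alone set that order: without it the other 8 summed to 7.07, 5.57 and 1.75 CPM in the dFLEx tumors and 18.4 and 14.8 CPM in the KP tumors. Esrp1 and Rab25 had no counts in 3800 and Cldn3 none in 3802. Msln, a mesothelial marker and named after its value was seen, was at 10.4, 4.99 and 1.22 CPM in the dFLEx tumors and 84.7 and 66.0 CPM in the KP tumors (log2 fold change -3.77, adjusted p = 0.154). The other mesothelial markers did not share that level: Upk3b, Upk1b and Lrrn4 were at or below 1.06 CPM in all tumors and Wt1 at or below 3.37 CPM. Wt1 was at 1.04, 0.486 and 0.453 CPM in the dFLEx tumors. The study reported strong WT1 protein staining in its dFLEx tumors, so these RNA values do not stand for the protein. The 5 skeletal muscle markers summed to 5761 to 23261 CPM in the dFLEx tumors and 1048 and 2948 CPM in the KP tumors. The part of other cell types in the difference of Krt8 and Krt18 was not tested.

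Of 10 factors known to act on keratin genes, 0 were called by edgeR. At an unadjusted p under 0.05, 2 were higher and 2 lower (10.6% of all tested genes in either direction). DESeq2 on tumor sums called 2 higher and 1 lower (6.53% of its tested genes in either direction). The median log2 fold change was -0.63, and it was 0.48 without 3800. Without 3802 the median was -0.33 (4 above 0 and 6 below). Per kilobase the highest were Tfap2c, Klf4 and Ets2. Tfap2c, an AP-2 factor of surface ectoderm, was at 113, 41.5 and 108 CPM in the dFLEx tumors and 0.0269 and 1.50 CPM in the KP tumors (log2 fold change 6.90, adjusted p = 0.160). Klf4 was at 12.7, 24.2 and 34.0 CPM against 50.5 and 22.9 CPM, and Ets2 at 28.5, 40.0 and 50.6 CPM against 96.2 and 26.7 CPM, with overlapping groups in both. The others at an unadjusted p under 0.05, named after their values were seen, were Grhl3 (log2 fold change 4.67), Klf5 (-3.07) and Gata3 (-2.74). Gata3 was at 2.69, 1.37 and 0.491 CPM in the dFLEx tumors and 1.22 and 19.0 CPM in the KP tumors, so its groups overlapped, and its log2 fold change was 0.32 without 3802. Trp63, the factor of the basal epidermal layer and named in the same way, was at 1.22 to 3.09 CPM in the dFLEx group and 2.31 and 4.51 CPM in the KP group (adjusted p = 0.879), which overlapped like the basal keratins.

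**Figure D5:**
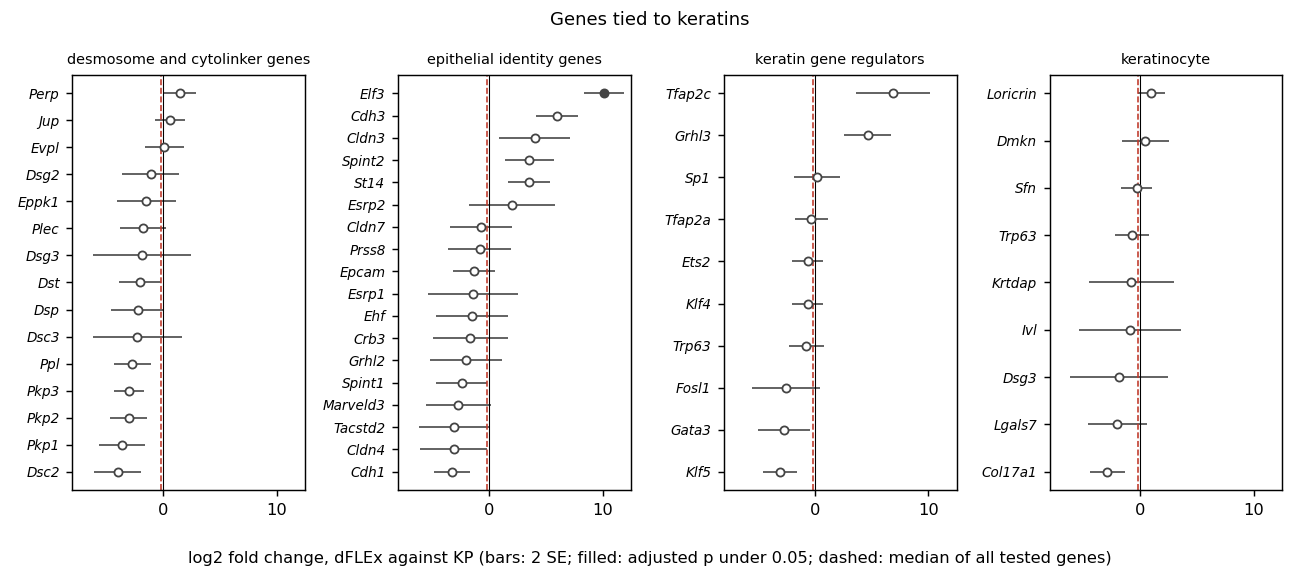
Log2 fold change (dFLEx against KP, bars of 2 SE) of each tested gene of 4 lists: desmosome and cytolinker genes, epithelial identity genes, keratin gene regulators and keratinocyte markers. Filled points have an edgeR adjusted p under 0.05, and the dashed line is the median of all tested genes (-0.18); Elf3 at 10.10 is the only filled point.

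The genes whose profile over the 5 tumors lay nearest to Krt8 and Krt18 were found by the root mean square difference of log2 (CPM plus 0.5), each profile centered on its mean. Krt8 ranked 4 of 24742 genes for Krt18, and Krt18 ranked 11 for Krt8, with a difference of 0.64. The 5 nearest to Krt8 were Rgs17 (0.25), Dynap (0.36), Wnt7b (0.40), Slc14a1 (0.44) and Gpr149 (0.44). Rgs17, a regulator of G protein signaling, was at 2.11, 0.988 and 0.680 CPM in the dFLEx tumors and 94.3 and 47.6 CPM in the KP tumors. The 5 nearest to Krt18 were Eno1b (0.51), Gm7993 (0.64), Hmga1b (0.64), Krt8 (0.64) and Nefl (0.72). Nefl, an intermediate filament protein of neurons, was at 0.249, 0.208 and 0.655 CPM against 179 and 48.8 CPM. Gm7993 is annotated as a processed pseudogene, and Eno1b and Hmga1b are close relatives of Eno1 and Hmga1, so reads of these genes may be shared with other genes and their counts are uncertain.

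The other pairs were ranked by the same measure. Krt5 ranked 1 for Krt15 and Krt15 ranked 2 for Krt5 (difference 0.19), and Krt5 ranked 3 for Krt14 but Krt14 ranked 31 for Krt5 (difference 0.33). Krt19 ranked 13193 for Krt7, and Krt7 ranked 8575 for Krt19. With 5 points, these ranks are a description of these tumors.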

How the data were processed

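Tumor RNA was depleted of ribosomal RNA and sequenced as paired ends. Per the study's methods and the submitters' processing notes, the authors trimmed reads with Trimmomatic (0.39), aligned them with STAR (2.7.10a) to mm39 extended by a CIC::DUX4 contig and counted them per gene with featureCounts (Subread 2.0.3). The deposited values are raw counts. Per the file headers, strand was ignored, reads with several alignments or over several genes were left out, and each mate was counted as a read, so the totals understate counting error. Genes with copies can lose reads.

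Symbols came from GENCODE M39 by gene identifier (56017 of 56750 features). The table has 9 of the 10 labelled libraries. Counts of a tumor's libraries were summed and compared with edgeR (4.0.16; filterByExpr, TMM, glmQLFit, glmQLFTest; R 4.3.3) with Benjamini-Hochberg adjustment over 24743 genes at a threshold of 0.05. SE is the absolute log2 fold change over the square root of F. The p-values measure the spread between these numbered tumors, for which the labels give no batch. DESeq2 (1.42.0) and limma-voom (3.58.1) were alternatives. Ratios of partner chains (counts per kilobase, 0.5 added) used an exact permutation test over tumors (SciPy 1.17.1). At the library totals, 3 counts correspond to 0.0648 to 0.146 CPM. Limits given for genes with 0 counts rest on 3 counts and take mates as separate reads, so they are too low. Copies were searched with blastn (2.17.0). The fit was tested on simulated counts.

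The genes and lists were chosen with earlier results of these data known. Named genes are the 10 keratins, other keratins reaching 1 CPM in a tumor, and of each list and of the neighbors the called genes and the 3 of highest mean level per kilobase. Genes outside this rule are marked as named after their values were seen. The plan gave the mean level without saying per kilobase. By unscaled level Sp1 would stand in place of Klf4 among the regulators, and Zfp740 in place of Mfsd5 among the neighbors. Of the cell type lists, those beside a result are given. One keratinocyte symbol had no match. Background subtraction per kilobase was added after the data were seen. One part of the KP genotype is not reported here.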

Additional observations from a re-analysis of the deposited data

How the results depend on the processing

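Krt18 was lower in dFLEx tumors and called in all 14 alternatives other than leaving out a tumor (log2 fold change -7.78 to -7.11), and Krt8 was called in 13 of 14 (-6.68 to -5.87), the exception being robust empirical Bayes (adjusted p = 0.0538), so that setting called 1 of the 10 keratins and the others 2. With 1 tumor left out, 0 to 2 were called, and where that left 1 KP tumor it was assumed to vary like the dFLEx tumors. The number of genes called, 45, depended strongly on the setting: 3344 with libraries as independent samples in edgeR and 4828 in DESeq2, 1404 by DESeq2 on tumor sums, 543 by limma-voom with tumors as random effects, 880 with no filter, 80 at a minimum mean of 1 CPM, 11 with robust empirical Bayes, and 0 to 414 with 1 tumor left out (0 without 170019 or 170024, 414 without 3802). Correlations could not decide whether duplicate numbers pair tumors. Deviations of same-numbered libraries correlated at -0.68 to 0.67, and those of differently numbered libraries at -0.67 to 0.67. With 2 KP tumors the correlations with 3800 and 3802 nearly mirrored each other, so both signs had to occur. With the duplicate number as a replicate block, 2476 genes and the same 2 keratins, Krt8 and Krt18, were called.

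Library totals in place of TMM moved the median of all genes from -0.18 to -0.47, and 9 of 10 keratins stayed below 0. Signs that turned were all of differences that were not called: without 3802, Krt5 (2.04), Krt14 (6.27), Krt15 (2.64), Krt17 (4.88) and Krt20 (6.46), without 3800, Krt19 (0.70), Krt80 (0.80) and the Krt5 to Krt14 ratio (1.04, range -3.04 to 1.04), without 170024, Krt19 (0.15), without 170025, Krt17 (0.18), without 170019, Krt80 (0.27), Krt14 by limma-voom (2.15), and Krt17 with libraries as samples (0.040) and under the replicate block (0.60). With 1 tumor left out the log2 fold changes of the others spanned -3.26 to 2.04 for Krt5, -4.58 to 6.27 for Krt14, -3.19 to 2.64 for Krt15, -1.27 to 4.88 for Krt17, -0.83 to 0.70 for Krt19, -2.49 to 6.46 for Krt20 and -0.92 to 0.80 for Krt80. The causes were not tested. Krt15 was filtered out without 170019, and Krt20 under several alternatives, so they gave no value there. The depth limits the basal keratins and Krt20, which had 0 to 2 counts in at least 1 tumor each, Krt5 excepted.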
